A study of Mus musculus with 13 samples.

Results

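The neutrophil lineage cells of 3 single-cell libraries whose transcripts were rich in hemoglobin genes were examined, 701 cells of 37344 in all. The cells were chosen by measured values: a barcode of library 4, 5 or 6 was kept when mitochondrial genes held at most 10% of its unique molecular identifiers (UMIs, each counting 1 captured transcript), S100a8 and S100a9 together held at least 1%, at least 2 of Csf3r, Cxcr2, Retnlg, Mmp9, Il1r2, Mmp8, Ngp and Camp had a UMI, and Cd79a and Cd3e had none. Library 4 gave 299 of 3000 barcodes, library 5 gave 193 of 5000 and library 6 gave 209 of 5000. The same rule kept 1526 cells in libraries 1, 2, 3 and 7, which served as the reference (92 of 6000, 446 of 8747, 578 of 5940 and 410 of 3657 barcodes). These are called lung library neutrophils below, because their libraries carried lung tissue transcripts.

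The study used C57BL/6 mice and compared lung cells after elastase-induced emphysema with other states. The 4 single-cell groups were Control, PPE-emphysema (repeated intratracheal porcine pancreatic elastase), PPE-recovery (elastase once, then a period without it) and Asthma (sensitised and challenged with ovalbumin), with 1 mouse described for each. All 13 samples, including 9 others labelled Acute injury, Con or emphysema that were not used here, were labelled as lung, and no allele, transgene or sort was given for them. The count table held 7 libraries, told apart only by the barcode ending, and nothing tied a library to a group. A library was therefore neither a condition nor a replicate here, each value below belongs to 1 library, and no test between libraries was made.

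Libraries 4, 5 and 6 stood apart from the other 4 before any neutrophil gene was considered. The globin genes Hba-a1, Hba-a2, Hbb-bs and Hbb-bt took 38.5%, 39.9% and 34.8% of all UMIs in libraries 4, 5 and 6, against 0.0279% in library 1 and less in the other lung libraries. Sftpc, the surfactant protein of alveolar type II cells, reached 0, 0 and 0.0646 UMIs per 1000000 of the library (CPM) in libraries 4, 5 and 6 and between 2653 and 9425 CPM in libraries 1, 2, 3 and 7. Scgb1a1, the secretory protein of club cells, stayed at or below 0.572 CPM in the hemoglobin-rich libraries and was at least 5852 CPM in the others. The defining genes of the labelled tissue were thus at or near 0 in libraries 4, 5 and 6, and the tissue, the library and any treatment cannot be told apart. Of all barcode sequences, 153 occurred in more than 1 library, and none of the 701 cells shared its barcode with a cell that met the rule in another library.

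Depth also differed. The cells held a median of 8510, 5185 and 4767 UMIs in libraries 4, 5 and 6, against 2291, 2790.5, 2909 and 3130 in libraries 1, 2, 3 and 7. The shallowest barcode of any kind held 5735 UMIs in library 4, 3439 in library 5 and 3946 in library 6, while the lung libraries reached down to between 304 and 501 UMIs. Few of the 701 cells lay close to the S100 and marker limits of the rule. The S100 share was 1 to 1.5% in 25 of them, 13 further barcodes with 2 or more markers had a share of 0.5 to 1%, and 681 cells carried at least 4 of the 8 markers. Barcodes just outside the S100 limit held 1039 CPM of Csf3r and 449 CPM of Ly6c2, and cells just inside held 860 and 775 CPM. The pools differed in make-up, with 5, 8 and 0 barcodes outside and 12, 10 and 3 cells inside from libraries 4, 5 and 6. In library 4 Csf3r was at 717 CPM outside and 491 CPM inside, and Ly6c2 at 739 and 1214 CPM. In library 5 both went the other way, Csf3r at 1247 and 1412 CPM and Ly6c2 at 260 and 205 CPM. Among barcodes with an S100 share of 1% or more, 173 were left out for a UMI of Cd79a or Cd3e. They numbered 23, 34 and 116 in libraries 4, 5 and 6.

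Neutrophils form in the bone marrow in a fixed sequence. Promyelocytes fill the primary granules with Mpo, Elane, Prtn3 and Ctsg, myelocytes and metamyelocytes then fill the specific granules with lactoferrin and its companions and stop dividing, and the mature cell switches to the genes of migration and sensing that are found in blood. In tissue the cells are known for rapid transcription of cytokines, chemokines and regulators of NF-kB signalling.

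The genes that chose the cells are given only as a description. S100a8, a subunit of the calcium-binding protein calprotectin, was at 82707 CPM in library 4, 55014 in library 5 and 77332 in library 6, and at 37314 to 46702 CPM in the lung library neutrophils. The background was measured in B cells of the same libraries, which should lack this gene and were themselves taken with an S100 share under 1%, so that their level is bounded by the choice. They held 108, 99.6 and 180 CPM of S100a8 in libraries 4, 5 and 6, and a UMI was found in 61.4%, 39.3% and 61.3% of them at median depths of 9074, 5444 and 5011 UMIs. Csf3r, the receptor of the granulocyte colony-stimulating factor, was at 571, 1955 and 1660 CPM in libraries 4, 5 and 6 and at 2154 to 2795 CPM in the lung library neutrophils. Retnlg was at 5751, 7246 and 11941 CPM, and Mmp8, a collagenase of the specific granules, at 1302, 545 and 595 CPM. All 5 marker genes of the label were detected in all 3 libraries, with Csf3r lowest and Mmp8 highest in library 4.

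Few transcripts of the earliest stage were found in the chosen cells. The rule, with its S100 share of at least 1% and its 2 or more markers, may itself leave out cells of this stage. The shares below therefore describe the chosen cells only and not how common the stage was in a library. No cell of the 701 reached 0.5% of UMIs for Mpo, Elane, Prtn3 and Ctsg together, which allows a share of up to 0.428% when 0 is read as 3 counts (exact binomial upper limit 0.525%), and none of the 1526 lung library neutrophils did. Elane, a serine protease of the primary granules, was at 7.75 CPM in library 4 (95% interval 4.91 to 11.6) and had no UMI in libraries 5 and 6, where 3 counts would be 2.51 CPM. Prtn3, a related protease, was at 34.0 CPM in library 4, 1.67 in library 5 and 4.18 in library 6. Mpo stayed at or below 0.837 CPM and Ctsg at or below 1.01 CPM in each of the 3 libraries. In library 4, Prtn3 had a UMI in 33 of 299 cells and in 10 of 140 B cells, which held 9.03 CPM. It was at 53.3 CPM in the late window described below against 5.07 CPM in the specific granule window, and at 72.8 CPM in cells with Csf1r and Ly6c2 against 21.4 CPM in the others. Mki67, a marker of dividing cells, was at 27.6 CPM in library 4, 1.67 in library 5 and 0.836 in library 6, and at 2.38 to 26.6 CPM in the lung library neutrophils, so the groups overlapped. A UMI of Mki67 was found in 19 of 299, 2 of 193 and 1 of 209 cells, and in 7.14%, 1.48% and 0.83% of the B cells. Gfi1, a repressor that acts early in granulopoiesis, stayed at or below 1.68 CPM in all 3 libraries.

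Of 20 specific granule genes, 14 were highest in library 4, beside 8.25% of all genes. Ltf, the lactoferrin gene at chr9:111019271-111042767 of GRCm38, was at 2981 CPM in library 4, 130 in library 5 and 0.836 in library 6, with 89.9 to 548 CPM in the lung library neutrophils. Ngp and Camp were among the genes that chose the cells and are given as a description. Ngp, which encodes a neutrophilic granule protein, lies at chr9:110419747-110423012 on the forward strand of GRCm38 and was at 10001 CPM in library 4 (95% interval 9888 to 10116), 368 CPM in library 5 (335 to 404) and 47.7 CPM in library 6 (36.1 to 61.8). The lung library neutrophils lay between 476 and 1962 CPM. Camp, the cathelicidin gene, was at 9721, 261 and 16.7 CPM against 265 to 1483 CPM. Lcn2, which encodes an iron-siderophore binding protein of the same granules, was at 5109, 913 and 1663 CPM against 655 to 2068 CPM, and here libraries 5 and 6 lay within the lung range.

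The stretches before the RefSeq start sites of Ltf and Ngp (GRCm38.p6, forward strand, 5′ to 3′) are shown because Ltf was far higher in library 4 and holds a short motif of the C/EBP family, with Ngp, a gene of the rule, beside it as a description, whose member Cebpe is known to act on specific granule genes. Capitals mark matches to TTGCNNAA on either strand, N being any base. The Ltf stretch is chr9:111019042-111019270 and the Ngp stretch is chr9:110419558-110419746, each ending before the first GENCODE exon.
Ltf: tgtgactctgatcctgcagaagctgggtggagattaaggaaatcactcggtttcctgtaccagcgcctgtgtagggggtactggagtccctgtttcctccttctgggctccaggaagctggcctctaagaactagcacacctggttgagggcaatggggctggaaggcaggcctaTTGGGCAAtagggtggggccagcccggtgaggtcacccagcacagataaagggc
Ngp: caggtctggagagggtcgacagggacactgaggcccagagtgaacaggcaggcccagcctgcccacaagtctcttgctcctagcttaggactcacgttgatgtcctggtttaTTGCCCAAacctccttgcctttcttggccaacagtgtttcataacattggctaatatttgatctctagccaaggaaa
The match lies 75 bases before the Ltf start and 138 bases before the Ngp start, with another at 11 bases before Ngp that is not shown. Lcn2 has a match 216 bases before its start, and Camp has none within 250 bases. Within 250 bases before the start, 9.56% of 32851 RefSeq promoters and 10.8% of genes hold the motif, as do 5 of the 15 specific granule genes with an entry (Ltf, Lcn2, Ly6g, Anxa1 and Fcnb). A match is only a description of the letters.

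Ly6g and Cybb, of the specific granule list, and Cebpe, of the regulators, were also highest in library 4. Most regulators were not: of 17 measured, 3 were highest in library 4, beside 8.25% of all genes. Another 8 were lowest there, beside 29.1% of all genes, and Cebpe was the 1 regulator at least 2-fold above all other libraries. Ly6g, the surface antigen used to sort neutrophils, was at 355 CPM in library 4, 60.3 in library 5 and 161 in library 6, with 48.8 to 100 CPM in the lung library neutrophils. Cebpe, the transcription factor of this stage, was at 127, 22.6 and 20.9 CPM, with 14.3 to 45.2 CPM in the lung library neutrophils. Cybb, the catalytic subunit of the NADPH oxidase, was at 1304, 151 and 212 CPM, with 251 to 806 CPM in the reference. Library 4 was thus above each of the 6 other libraries for these 3 genes, while library 6 was also above the lung range for Ly6g, and libraries 5 and 6 lay within it for Cebpe and below it for Cybb. Library 4 was singled out after these values were seen. Counted over the whole list of 20 specific granule genes, 9 were at least 2-fold above each of the 6 other libraries (Ltf, Lcn2, Itgb2l, Ly6g, Cd177, Wfdc21, Orm1, Serpinb1a and Adpgk), beside 0.651% of 8299 genes with at least 50 UMIs. None was 2-fold below all others, beside 3.13% of all genes. With globin UMIs left out of the totals, 12 of the 20 and 90 of all genes passed. Chil3, a chitinase-like protein, was among the exceptions, at 1449 CPM in library 4 and 1961 CPM in library 7. Of the 20 genes, 1 was lowest in library 4, beside 29.1% of all genes. Some monocyte markers were also high in library 4, where 5 of 14 (Ly6c2, F13a1, Ms4a6c, Ccr2 and Ms4a4c) were 2-fold above all others. The summed level of the 14 was 3249, 1119 and 1596 CPM in libraries 4, 5 and 6 and 1205 to 2132 CPM in the lung libraries. Within library 4 these markers did not follow the specific granule genes. There, 13 of the 14 were lower in the specific granule window described below, beside 20.0% of 4360 genes.

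**Figure D1:**
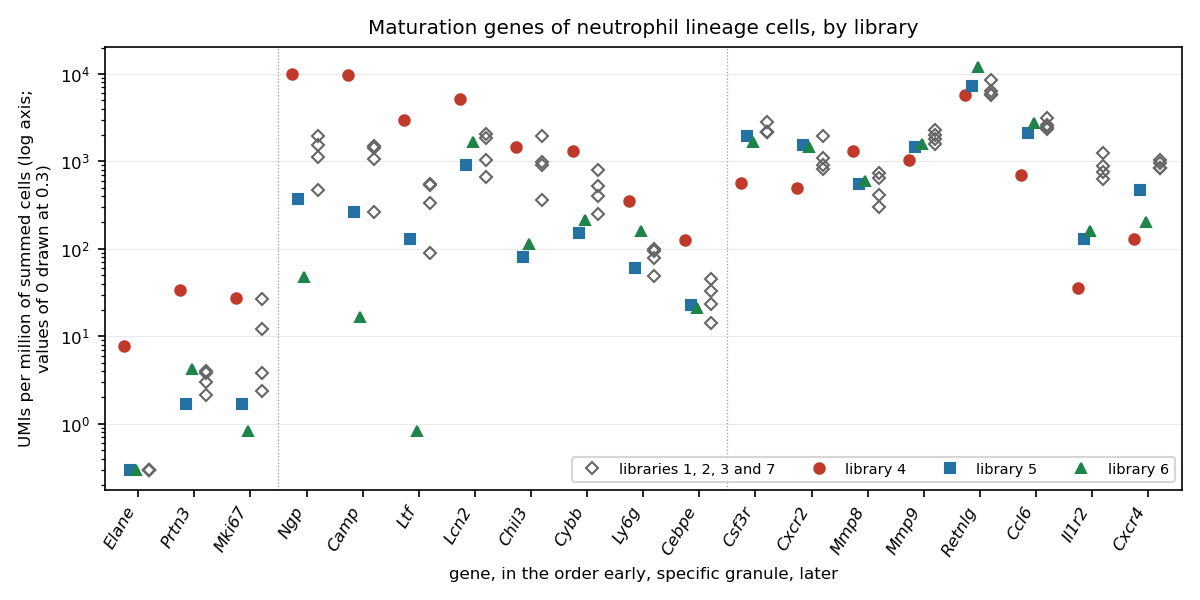
CPM of summed neutrophil lineage cells (log axis, zeros drawn at 0.3) for 19 genes ordered from early to later stages, with 1 symbol for each of libraries 4, 5 and 6 and open diamonds for the 4 lung libraries; there are no error bars, since each symbol is 1 library. Library 4 lies above all others for Ltf, Lcn2, Cybb, Ly6g and Cebpe and below all others for Ccl6 and Cxcr4; Ngp, Camp, Csf3r, Cxcr2, Mmp8, Mmp9, Retnlg and Il1r2 helped to choose the cells and are shown as a description.

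The libraries differed in how many cells were rich in Ltf and Lcn2. Cells were called specific granule window when Ltf and Lcn2 together held at least 0.5% of UMIs and late window when neither they nor the primary granule genes did; a window is a range of a share and not a cell type. The specific granule window held 118 of 299 cells of library 4, or 39.5% (exact binomial 95% interval 33.9 to 45.3), 9 of 193 in library 5, or 4.66% (2.15 to 8.67), and 22 of 209 in library 6, or 10.5% (6.72 to 15.5). The lung libraries had 6.52%, 0.897%, 3.29% and 7.56% in libraries 1, 2, 3 and 7. With cells of 1% globin or more left out, the shares were 63.2%, 8.60% and 17.2% in libraries 4, 5 and 6. The highest Ltf and Lcn2 share of a cell was 3.89% in library 4 and 2.81%, 3.43%, 3.62% and 3.41% in libraries 1, 2, 3 and 7. Over the 3 hemoglobin-rich libraries the share of cells in the window was 21.3%, and without library 4 it was 7.71%. These intervals, like all others here, cover counting error only.

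Cells of the window with Ltf, or with high Ngp and Camp, were counted in each library. In library 4, 113 of the 118 cells had a UMI of Ltf and 91 had Ngp and Camp at 2% of UMIs or more. In library 5, 2 of 9 had a UMI of Ltf and 1 had such an Ngp and Camp share, and in library 6 none of 22 had either. In the lung libraries, 5 of 6, 2 of 4, 8 of 19 and 8 of 31 had a UMI of Ltf, and 3, 1, 7 and 5 had such an Ngp and Camp share, in libraries 1, 2, 3 and 7. The window of library 6 was set by Lcn2 alone, at 6775 CPM against 1160 CPM in its late window. Ltf had a UMI in 117 of 299, 2 of 193 and 1 of 209 cells of libraries 4, 5 and 6, and in none of 140, 1 of 1623 and none of 1927 B cells of the same libraries. With every cell thinned to 1500 UMIs, the share of cells with Ltf was 36.1%, 0.518% and 0%. Globin was included in the 1500 UMIs, so the depth in other genes was not equal.

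**Figure D2:**
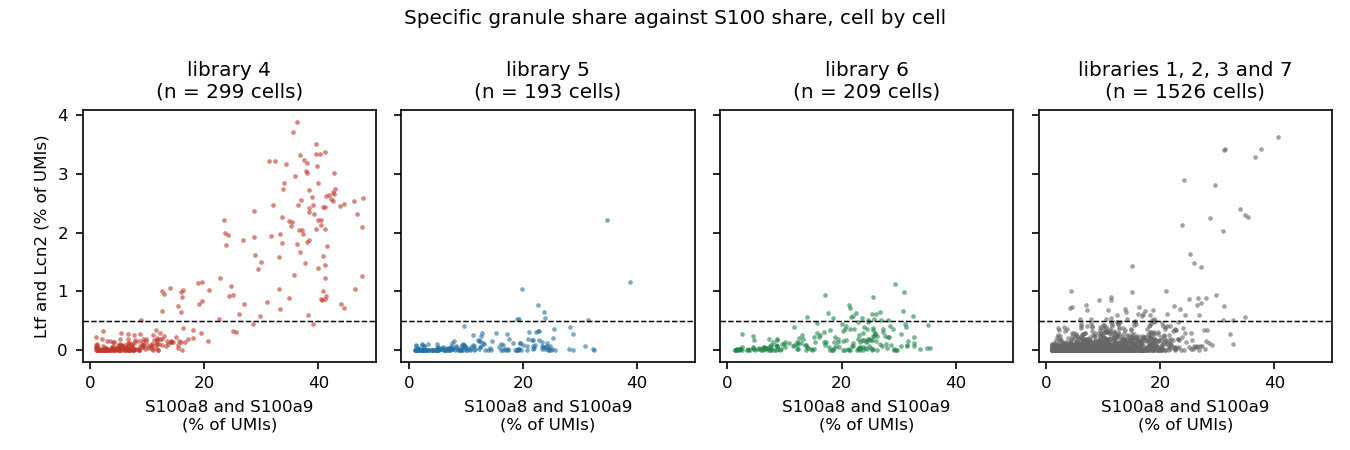
Each point is 1 cell, with the S100a8 and S100a9 share on the horizontal axis and the Ltf and Lcn2 share on the vertical axis, both in percent of UMIs; the dashed line is the limit of 0.5%. In library 4 the 118 cells above the line extend to 3.89%, and their median S100 share is 36.8% against 6.58% for the 181 cells below it.

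The hemoglobin transcripts and the depth limit moved with the windows. Globin genes took under 1% of UMIs in 133, 93 and 128 cells of libraries 4, 5 and 6 and 10% or more in 152, 99 and 61 cells, with few cells between. In library 4, 22.9% of the specific granule window and 69.1% of the late window had at least 10% globin. Without globin UMIs, 118 of the 181 late window cells of library 4 would have fallen below the lowest total of their library, against 5 of the 118 cells of the specific granule window. The late window cells held a median of 3988 UMIs without globin and the specific granule cells held 8460. Among cells with at least 5735 UMIs without globin, the share in the specific granule window was 64.2% in library 4 (113 of 176 cells), 3 of 17 cells in library 5, 3 of 20 in library 6 and 2 of 6, 1 of 59, 6 of 79 and 10 of 39 cells in libraries 1, 2, 3 and 7. The share of library 4 (95% interval 56.6 to 71.3%) was the highest, but that of library 1 rests on 6 cells and its interval (4.33 to 77.7%) overlaps, and depth above this minimum was not matched. B cells carried globin as well, at 10% or more of UMIs in 55.7%, 17.0% and 15.1% of those in libraries 4, 5 and 6. Split by globin share, the specific granule window held 84 of 133 cells with under 1% globin and 27 of 152 with 10% or more in library 4. Per UMIs without globin, Il1b was at 368 CPM in the former and 1933 CPM in the latter. For the same split it was at 3520 and 3446 CPM in library 5 and at 1453 and 2206 CPM in library 6.

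**Figure D3:**
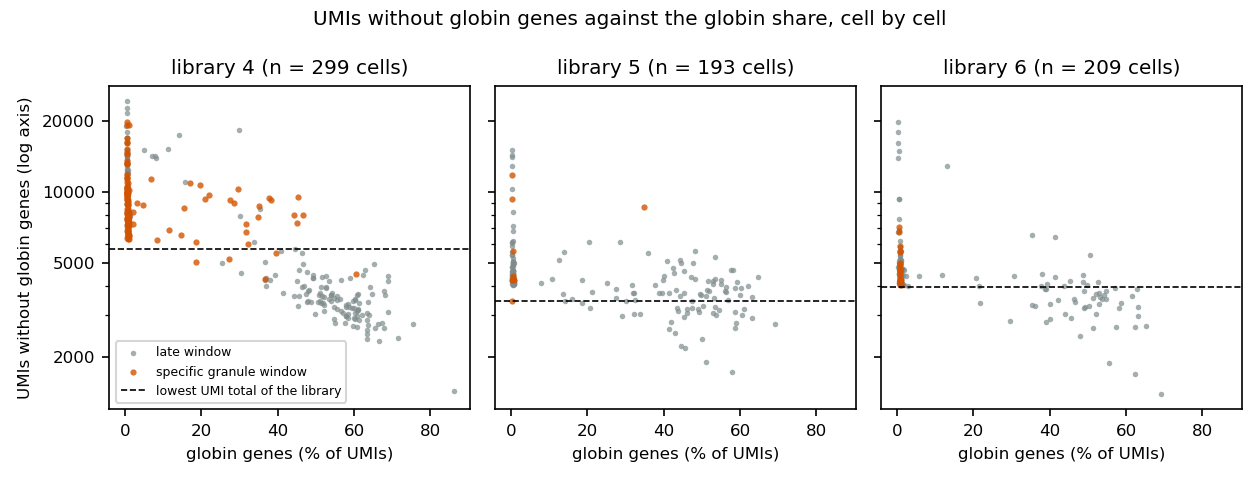
Each point is 1 cell of library 4, 5 or 6, with the globin share in percent of UMIs on the horizontal axis and the UMIs left without globin on the vertical log axis; orange points are the specific granule window, gray points the late window, and the dashed line is the lowest UMI total of any barcode of that library. In library 4 the late window cells lie mostly below the line, at high globin shares, and 113 of 118 specific granule cells lie on or above it.

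A further set of cells carried monocyte transcripts. At least 2 UMIs of both Csf1r, the receptor of the macrophage colony-stimulating factor, and Ly6c2, a surface antigen of inflammatory monocytes, were found in 51 of 299, 7 of 193 and 7 of 209 cells of libraries 4, 5 and 6, or 17.1% (13.0 to 21.8), 3.63% (1.47 to 7.33) and 3.35% (1.36 to 6.78). Ly6c2 was not limited to cells with Csf1r. In library 4 the other cells of the specific granule window held 767 CPM of Ly6c2 and 10.5 CPM of Csf1r. The other late window cells held 188 CPM of Ly6c2 and 110 CPM of Csf1r. B cells of libraries 4, 5 and 6, which should lack both genes, met the criterion of both genes in 7.14%, 0.308% and 0.467% of cells. In the lung libraries the share was 2.17%, 2.69%, 2.42% and 1.46%. These cells were deep, with a median of 14406, 12865 and 14794 UMIs, and in library 4 they held 1196 CPM of Fn1 and 1249 CPM of Ccr2 against 47.8 and 87.5 CPM in the other cells. Cxcr2, a chemokine receptor of neutrophils, had a UMI in 44 of the 51. By these markers they carried genes of both lineages, which goes against the label, and no doublet caller was run, so single cells and doublets cannot be told apart. Without them 636 cells remained, and the specific granule window held 43.5%, 4.84% and 10.9% of cells in libraries 4, 5 and 6.

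Within library 4 the windows differed well beyond the genes that defined them. Of 4360 genes with at least 50 UMIs in the 2 sums, 8.76% were at least 2-fold higher in the specific granule window and 20.0% at least 2-fold lower. Of the 20 specific granule genes, 16 were higher and none lower, Ltf and Lcn2 included by construction. The rule gene Ngp was at 24998.5 CPM inside the window and 50.5 CPM in the late window, the rule gene Camp at 24356 and 10.7 CPM, Ly6g at 839 and 33.6 CPM, and Cebpe at 290 and 19.6 CPM. Of 29 late maturation genes measured, 16 were lower and 3 higher (Mmp25, Fpr1 and Fpr2). Il1b was at 84.5 CPM inside the window and at 1056 CPM in the late window, Ccl6, a chemokine of mature neutrophils, at 193 and 1033 CPM, and Csf3r, a rule gene, at 229 and 798 CPM. The other 10 late genes were not called. The late window also held most monocyte markers: 13 of 14 were lower in the specific granule window, and without the cells with Csf1r and Ly6c2 the counts were 17 of 19 specific granule genes higher, 16 of 29 late genes lower and 11 of 13 monocyte markers lower, beside 18.5% of 3068 genes higher and 12.7% lower. Genes of the largest difference that were on no list were Abca13, Olfml2b and Mgst2 on the higher side and Steap4, Tmem176a and Hfe on the lower side. Thinned to 1500 UMIs without globin, the specific granule cells of library 4 had a median of 513.5 genes (quartiles 487 to 565) and the late cells 685.5 (629 to 807).

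Receptors and later maturation genes differed in where they lay. Cxcr2, which helped to choose the cells and is given as a description, was at 499.7 CPM in library 4, 1530.3 in library 5 and 1471 in library 6, with 812 to 1927 CPM in the lung library neutrophils. Ccl6 was at 698, 2103 and 2726 CPM, with 2361 to 3096 CPM, so library 6 lay within the lung range and libraries 4 and 5 below it. The summed late maturation genes were at 11441, 26490 and 24704 CPM, with 50888 to 62873 CPM in the reference. This sum includes Il1b, Junb, Dusp1 and Ptgs2, which were far lower in all 3 libraries (values below). It therefore does not describe the 30 genes alike, and Il1b and Ptgs2 also belong to the inflammatory activation list. The median log2 ratio of the late maturation list was -0.32, or 0.08 without globin, beside -0.49 and -0.13 for all genes measured. By the call given below, 5 of the 30 (Clec4e, Il1b, Dusp1, Junb and Ptgs2) were lower in all 3 libraries, beside 3.86% of all genes, and 25 were not called. Of the 30 late maturation genes, 22 were lowest in library 4, beside 29.1% of all genes, and 12 were at least 2-fold below each other library, beside 3.13% of all genes. Cxcr4, the receptor that retains neutrophils in bone marrow, was at 128 CPM in library 4, 472 in library 5 and 202 in library 6 and at 839 to 1045 CPM in the lung library neutrophils. Il1r2, a decoy receptor of interleukin 1 and one of the genes of the rule, was at 35.4, 128 and 160 CPM against 621 to 1233 CPM. Both were below the whole reference range in all 3 libraries.

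Across all genes the 3 libraries were then set against the 4 lung libraries. A gene was called higher when its lowest CPM in libraries 4, 5 and 6 was at least 2 times its highest in libraries 1, 2, 3 and 7, and lower in the opposite case. Sums under 3 counts, zeros included, were set to 3 counts. Of 8299 genes with at least 50 UMIs, 35 were higher (0.422%) and 320 were lower (3.86%). Without library 1, 63 were higher and 529 lower, and without library 4, 64 were higher. Globin took up part of the totals, and the log2 ratio of medians over all these genes was -0.49, or -0.13 when globin UMIs were left out. On that second scale 42 genes were higher and 203 lower.

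Of the 35 higher genes, 13 were on a list, 9 of red cells and 4 of megakaryocytes, and 22 were on none. The red cell genes had marked the libraries in the first place. All 9 measured erythroid markers were higher, beside 0.422% of all genes, among them Alas2, the first enzyme of heme synthesis, at 724, 854 and 462 CPM in libraries 4, 5 and 6, where the lung library neutrophils had no UMI. The level lay in the globin-rich cells: per UMIs without globin, Alas2 was at 22.5, 12.4 and 14.9 CPM in cells with under 1% globin and at 2915, 2691 and 2382 CPM in those with 10% or more. Without the cells of 1% globin or more, 20 genes in place of 35 were higher. Slc4a1, the anion exchanger of the red cell membrane, was at 139, 125 and 41.8 CPM and also had no UMI in the reference. Of 5 megakaryocyte markers 4 were higher (Pf4, Ppbp, Itga2b and Gp9), beside the same 0.422%. Pf4, the platelet factor 4, was at 201, 717 and 606 CPM, with 3.76 to 82.1 CPM in the reference, and at 190, 378 and 479 CPM in the B cells of libraries 4, 5 and 6. Outside the lists, the largest gaps were those of Bpgm, Ube2l6, Fam46c, Ube2o, Fech, Nrgn, Fam220a, Epb41, AY036118 and Tfdp2. Bpgm, which makes the 2,3-bisphosphoglycerate of red cells, was at 512, 485 and 322 CPM against 15.1 CPM or less. At least 3 UMIs of platelet genes were found in 43.1%, 72.5% and 72.7% of the cells, and in 35.7%, 54.3% and 67.7% of the B cells.

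The lower genes were led by inflammatory mediators. Of the 20 genes of the inflammatory activation list, 18 were lower, beside 3.86% of all genes, Sod2 and Socs3 being the exceptions. Without globin 17 were lower, Tnf no longer among them. The median log2 ratio of the list was -4.06 beside -0.49 for all genes measured. Il1b, the interleukin 1 beta gene at chr2:129364570-129371139, was at 669 CPM in library 4 (95% interval 639 to 699), 2536 in library 5 (2446 to 2628) and 1377 in library 6 (1311 to 1445). In the lung library neutrophils it was at 15485, 15384.5, 13779 and 14827 CPM in libraries 1, 2, 3 and 7. The 2 sets of libraries were far apart, and the 3 hemoglobin-rich libraries also differed among themselves beyond counting error. Cxcl2, a chemokine that draws neutrophils, lies at chr5:90903871-90905938 and was at 2.02, 13.4 and 5.85 CPM against 6438 to 10256 CPM, a log2 ratio of medians of -10.40. Cxcl3, its neighbour, had 1 UMI in library 4 and none in libraries 5 and 6, against 94.1 to 242 CPM. Ccrl2, an atypical chemokine receptor, was at 1.35, 6.70 and 10.04 CPM against 890 to 1340 CPM. Regulators of NF-kB signalling followed, with Nfkbia at 112, 172 and 169 CPM against 1782 to 2742 CPM, and Tnfaip3 at 7.75, 10.9 and 10.9 CPM against 545 to 840 CPM. Ptgs2, the inducible cyclooxygenase, was at 6.74, 49.4 and 16.7 CPM against 1895 to 2669 CPM. The other 11 lower genes of the list were Tnf, Ccl3, Ccl4, Nlrp3, Osm, Nfkbiz, Ier3, Il1rn, Acod1, Icam1 and Cd274.

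The bases before the starts of Cxcl2 and Cxcl3 are shown as those of neighbouring chemokine genes called lower, with matches to an NF-kB motif in capitals on either strand, GGGA and CC parted by any 4 bases. They are chr5:90903799-90903870 and chr5:90786001-90786100 of GRCm38.p6, forward strand, 5′ to 3′, from RefSeq.
Cxcl2: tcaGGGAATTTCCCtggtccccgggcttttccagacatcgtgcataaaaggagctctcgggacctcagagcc
Cxcl3: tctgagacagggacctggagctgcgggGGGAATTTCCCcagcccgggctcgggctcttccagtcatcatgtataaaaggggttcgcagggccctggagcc
In each, a match on the forward strand and one on the reverse strand overlap and are shifted by 1 base, starting 97 and 73 bases before the Cxcl2 and Cxcl3 starts. The motif occurs in 17.6% of all RefSeq promoters and 19.7% of genes in the same 250 bases and in 9 of the 17 inflammatory genes with an entry.

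Several immediate early genes, which cells transcribe within minutes of a stimulus, were lower too. They formed no list, and Fos, Jun, Fosb, Egr1 and Atf3 were chosen after their values were seen. Among list genes, Dusp1, a phosphatase, was at 285, 1365 and 604 CPM in libraries 4, 5 and 6 against 4361 to 8329 CPM, and Junb, a subunit of the transcription factor AP-1, at 306, 1034 and 873 CPM against 5476 to 8407 CPM. Outside the lists, the largest gaps on the lower side were those of G0s2, Egr1, Plk3, Fosb, Tgm2, Dusp2, Traf1, Maff, Snai1 and Ppp1r15a. Egr1, a zinc finger transcription factor, was at 4.04, 20.1 and 5.85 CPM against 861 to 2140 CPM, and G0s2, an inhibitor of lipolysis, at 116, 122 and 71.9 CPM against 5323 to 8784 CPM. Junb and Egr1 were also read in other cells. In B cells, Junb was at 120, 129 and 110 CPM in libraries 4, 5 and 6 and at 708 to 1333 CPM in the lung libraries, and Egr1 at 0, 7.12 and 5.02 CPM against 71.3 to 143 CPM. In T cells Junb was at 76.9, 97.2 and 96.7 CPM against 1059 to 1496 CPM, and in cells with Csf1r and Ly6c2 but few S100 transcripts at 256, 369 and 338 CPM against 1231 to 1591 CPM. Nfkbia in B cells was at 135, 195 and 218 CPM against 176 to 216 CPM, so this gene did not separate the B cells of the 2 sets of libraries. Of the 18 inflammatory activation genes with at least 50 UMIs in B cells, 15 were lower in libraries 4, 5 and 6 than in every lung library, Tnf, Nlrp3 and Nfkbia being the others, beside 16.2% of 11435 genes. In T cells it was 15 of 18, beside 19.4% of 10286 genes. Il1b in B cells was at 19.5, 17.0 and 13.9 CPM against 28.9 to 98.5 CPM, and the part of free RNA in such low levels was not tested.

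**Figure D4:**
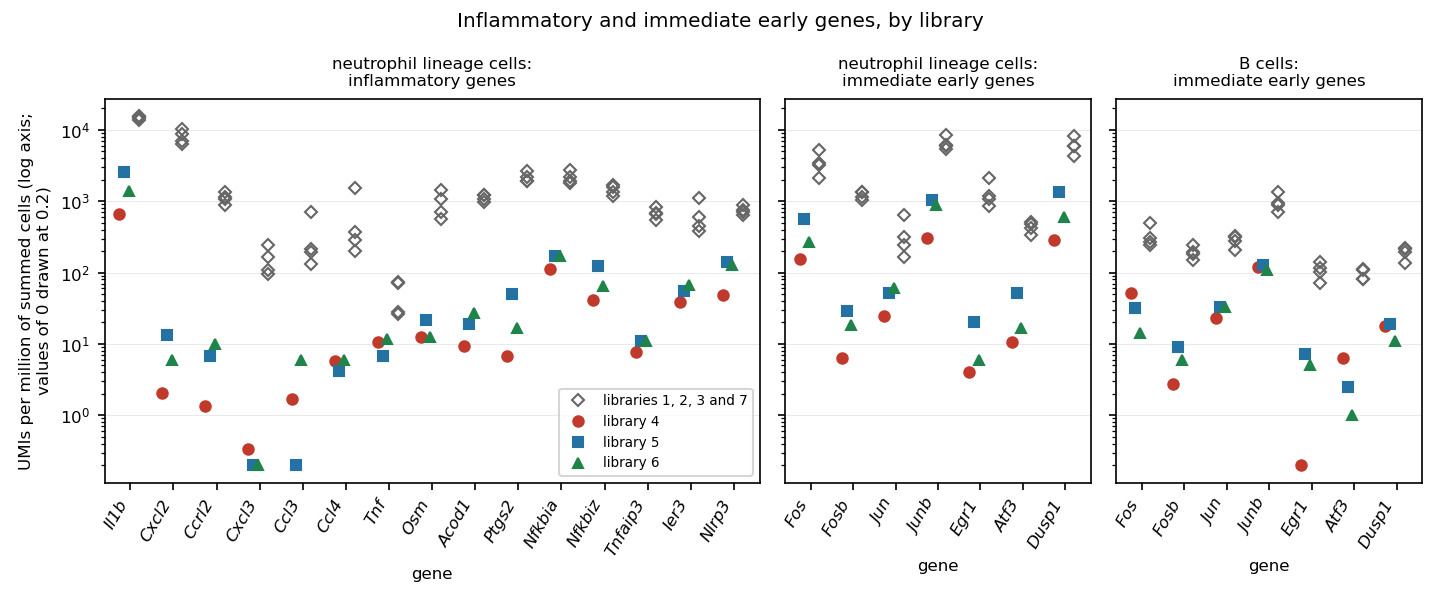
CPM of summed cells (log axis, zeros drawn at 0.2) for 15 inflammatory genes and 7 immediate early genes in neutrophil lineage cells and for the same 7 genes in B cells, with filled symbols for libraries 4, 5 and 6 and open diamonds for the 4 lung libraries; no error bars are drawn, since each symbol is 1 library. Filled symbols lie below all diamonds for every gene shown in each panel, and the distance is larger for Cxcl2 and Ccrl2 than for Tnf.

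Of 20 interferon response genes none was called in either direction, near the 0.422% higher and 3.86% lower of all genes, and their median log2 ratio was -0.05 beside -0.49. The call needs all 3 libraries, and library 4 alone differed. There, 13 of the 20 were lowest, beside 29.1% of all genes, and 6 were at least 2-fold below each other library, beside 3.13%. Rsad2, an antiviral enzyme, was at 328, 705 and 293 CPM in libraries 4, 5 and 6 and at 208 to 353 CPM in the lung library neutrophils, and Ifit1 was at 8.42, 168 and 58.5 CPM against 59.1 to 119 CPM, so library 5 had the highest and library 4 the lowest values of Ifit1. Of 16 pattern and chemoattractant receptor genes, 5 were lower, or 4 without globin, beside 3.86% of all genes, among them Trem1, an amplifier of inflammatory signals, at 34.4, 124 and 76.1 CPM against 1035 to 1271 CPM, and Tlr2, a receptor of bacterial lipoproteins, at 38.8, 55.3 and 62.7 CPM against 181 to 248 CPM. Of 17 regulators of granulopoiesis, Cebpb, Trib1 and Per1 were lower, beside 3.86% of all genes. Cebpb, which drives emergency granulopoiesis, was at 365, 599 and 442 CPM against 4971 to 7279 CPM, while its relative Cebpd was at 329, 641 and 672 CPM against 425 to 580 CPM. Of 13 genes of growth factor signalling, Pim1, Bcl2a1b and Bcl2a1d were lower, beside the same 3.86%. The last 2 are survival genes of a family of close copies, and how the counting treated reads that match both was not tested.

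Of 18 proteases and inhibitors measured, 2 were lower, Adam8, a membrane metalloprotease, and Ctsl, beside 3.86% of all genes. With globin left out, 1 of 18 was lower beside 203 of 8299, so the list lay near the background, and Ctsl was the gene that remained. Ctsl, the cathepsin L gene that gave the study its subject, was at 19.9, 8.37 and 15.9 CPM in libraries 4, 5 and 6 and at 102, 146, 123 and 130 CPM in libraries 1, 2, 3 and 7. In B cells it was at 14.6, 4.63 and 6.13 CPM against 27.8 to 83.9 CPM. Ctss, the cathepsin of antigen processing, was at 420, 126 and 177 CPM against 178 to 501 CPM, and in library 4 it was at 1314 CPM in the cells with Csf1r and Ly6c2 and at 130 CPM in the others. Markers of eosinophils and basophils were at or near 0, with 7 of 12 at 0 and a summed 3.37, 6.70 and 6.69 CPM, and 9 of 14 markers of lung epithelium, stroma and endothelium were at 0. Summed B cell markers were at 81.6, 406 and 466 CPM, led by Ighm, and summed T and NK cell markers at 80.9, 25.95 and 132 CPM, led by Gzma.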

How the data were processed

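Dissociated lung cells were sequenced with a droplet method. Per the labels and file header, the authors aligned reads with STAR to mm10, counted UMIs with Cell Ranger 3.1.0 and merged 7 libraries after down-sampling reads. The deposited values are raw UMI counts per gene and barcode, before the study's filter on cells. Columns of per-sample values left unused numbered 0. The members and gene lists were chosen with earlier results of these data known.

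Counts of the cells meeting the rule were summed per library and divided by the summed UMIs (CPM). Intervals are exact Poisson (CPM) or exact binomial (shares) at 95% and cover counting error only. In calls and ratios, sums under 3 counts, zeros included, were set to 3 counts. Because libraries were not tied to labels, nothing was tested. Genes needed 50 UMIs over the 7 sums. B cells had at least 2 UMIs of Cd79a, at least 1 of further B cell genes and none of Cd3e, T cells had Cd3e and Cd3d and no Cd79a, and both had an S100 share under 1% and at most 10% mitochondrial UMIs. No doublets were removed. Some items are not reported here. Library totals ran from 29701569 to 79439569 UMIs.

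Genes were named when they belonged to the rule or to a fixed set of stage genes, were among the most abundant or called genes of one of 23 lists (304 genes, 303 in the table), or were among the 10 of largest gap in each direction outside the lists. Fos, Jun, Fosb, Egr1, Atf3, G0s2, Pf4, Ppbp, Nrgn, Cybb, Cebpd, Ifit1, Rsad2, Ccl6, Chil3, Slc4a1, Abca13, Olfml2b, Mgst2, Steap4, Tmem176a and Hfe, and library 4, were singled out after their values were seen. So were Ier2, Zfp36, Hspa1a, Hspa1b, Nr4a1, Clec1b, Hbb-bs and Hba-a1. The calls were tested on simulated data. Python 3.11.15, numpy 2.4.6, scipy 1.17.1, pandas 2.3.3 and matplotlib 3.10.9 were used.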

Additional observations from a re-analysis of the deposited data

How the results depend on the processing

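Of 113 alternative values, 82 stayed close to those reported and 31 moved. Without cells of 1% globin or more, 354 cells remained, with 20 genes higher, 174 lower, 32.2% of cells in the specific granule window and 67.8% in the late window. Cells thinned to 1500 UMIs gave 22 higher and 193 lower genes, and lung cells of at least the lowest total of libraries 4, 5 and 6 gave 21 higher. A fold of 4 gave 16 and 113. Globin and rule genes left out of the total gave 59 and 181, and globin alone, chosen after seeing the data, gave 203 lower. A window limit of 0.25% gave 29.7% and 70.2% of cells in the specific granule and late windows, and a limit of 1% gave 13.8% and 86.2%. The primary granule window held 0.143% of cells at the limit of 0.25% and 0 at the limit of 1%. Also chosen after seeing the data, cells of at least the lowest total of library 4 without globin gave 55.9% and 44.1%, and Ltf alone at 0.1% gave 15.5% and 84.5%. Leaving out 1 library at a time gave 402 to 508 cells, 35 to 64 higher genes, 326 to 529 lower genes, 7.71% to 27.6% in the specific granule window and 72.4% to 92.3% in the late window. The 64 came without library 4, and without library 1, which had the fewest cells meeting the rule, 63 genes were higher and 529 lower. The cause of these changes was not tested. No paired analysis was possible because the libraries carry no replicate numbers and no test was made.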
